A study of Mus musculus with 4 samples.

Results

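The 38 genes described here are known for their expression in astrocytes and in Bergmann glia, the radial astrocytes of the cerebellar cortex. They were taken by exact symbol from a list of such genes, and all 38 were found among the 32531 gene names counted. They were measured in RNA pulled down with tagged ribosomes of glutamatergic neurons. They are thus genes of a cell type that the purification does not target, although neurons share some of them. Of the 38, 27 reached 1 count per 1000000 assigned counts (CPM) in every library, which is 71.1%, beside 34.5% of all gene names. Summed over the members, the share of each library's counts was 0.115% in replicate 1, 0.138% in replicate 2, 0.226% in replicate 3 and 0.124% in replicate 4. Replicate 3 therefore held the largest sum and the other 3 libraries lay close to each other.

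Adult transgenic mice of the line Slc17a6-EGFP/Rpl10a (JX883), also called Slc17a6-TRAP, gave the RNA. The tissue was the deep cerebellar nuclei and the mice were not treated. In translating ribosome affinity purification (TRAP), a ribosomal protein fused to EGFP is expressed from the regulatory sequences of a chosen gene, and ribosomes that carry it are pulled down with antibodies against EGFP. Here the chosen gene was Slc17a6, which encodes a vesicular glutamate transporter. The 4 immunopurified libraries form 1 group, each from 3 mice, with library numbers 1300, 1301 and 1302 for replicates 1 to 3 and 1476 for replicate 4. The labels give neither sex nor strain, and do not say that the pools held different mice, so p-values measure only the spread between these libraries. Input RNA was not analysed here, so neither enrichment nor depletion of a gene by the pulldown was measured. Whether RNA of a member came from tagged ribosomes or was carried along from other cells was not tested. In such RNA, fewer cells of a type and less RNA per cell cannot be told apart.

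Library totals for replicates 1 to 4 were 9621762, 10306407, 10436291 and 10988373 assigned counts. At these depths a gene without a count could still be present at up to 0.273 to 0.312 CPM, the level of 3 counts, and this limit covers counting error only. Slc17a6 stood at 2237, 2011, 2014 and 2309 CPM, which places it at percentile 99.7 of genes per kilobase of exon. Rn45s, the ribosomal RNA precursor, took 4.99, 14.2, 13.6 and 4.92% of the counts. Leaving it out did not change how many members reached 1 CPM in every library.

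Astrocytes clear glutamate and potassium from around synapses, hold water and ion channels at their endfeet on vessels, and are coupled to each other by gap junctions. Bergmann glia share these functions along the dendrites of Purkinje cells and derive from radial glia. Notch receptors and their Hes effectors, and the Id proteins downstream of bone morphogenetic protein (BMP) signals, are known to hold glial progenitors and astrocytes in their state.

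To compare levels between genes, CPM was divided by the exon length of each gene in kilobases and averaged over the 4 libraries. Among 10985 genes of known length that had 10 counts or more in each of the 4 libraries, the 27 members that passed had a median percentile of 52.0. Passing this filter removes the lowest members, so the median describes only those 27. Of them, 15 lay above the middle of the distribution and 12 below it. The highest were Cst3 at 94.6 ± 7.67 CPM per kilobase (SD, n = 4), Mt2 at 84.0 ± 46.2, Ndrg2 at 74.5 ± 35.8, S100b at 50.4 ± 9.52 and Mt1 at 27.0 ± 11 CPM per kilobase. The first 4 of these lay at percentiles 97.6, 97.1, 96.5 and 93.6. Cst3 was above Mt2 in 3 of 4 libraries and Mt2 above Ndrg2 in 2 of 4, so the order of these neighbours did not hold in every library, whereas Ndrg2 was above S100b and S100b above Mt1 in 4 of 4. The lowest members, all at 0.645 CPM per kilobase or less, were Hes1, Notch2, Id3, Nes, Notch1 and, last, Id1 at 0.0642 ± 0.0807.

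**Figure D1:**
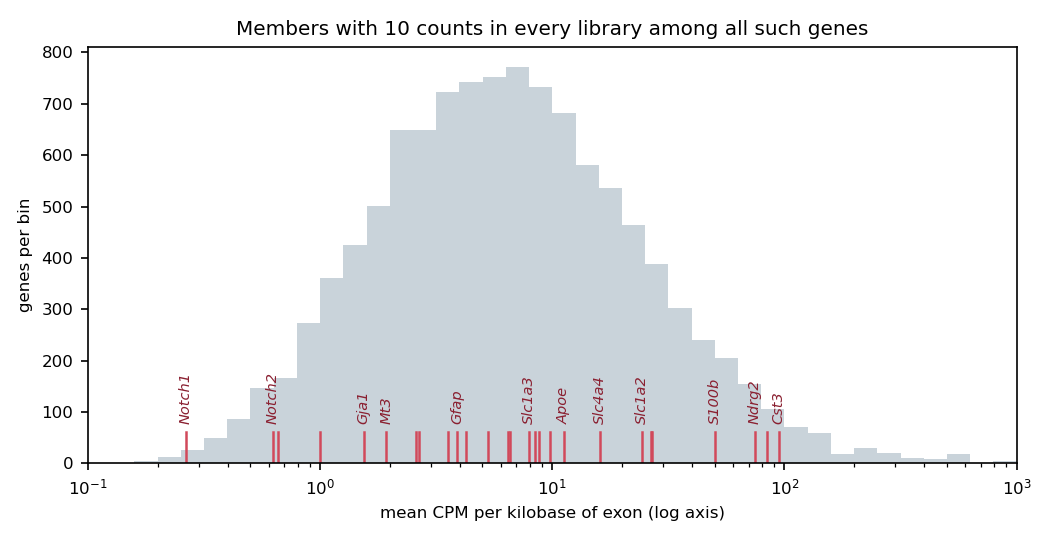
Histogram of mean CPM per kilobase of exon over 4 libraries (log axis) for genes that had 10 counts or more in each library, with the number of genes per bin on the vertical axis and each of the 27 members that passed as a red tick. The ticks run from Notch1 at 0.264 to Cst3 at 94.6 CPM per kilobase and span nearly the whole distribution.

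Libraries differed from each other in these genes, and the pattern was similar for many of them. Of the 37 members with enough counts for a test (Id1 was not tested), 23 had their highest CPM in replicate 3, which is 62.2%, beside 25.4% of all 15083 genes tested. In replicate 4, 20 had their lowest CPM, which is 54.1%, beside 36.9% of all genes. Both held for 15 members (40.5%), beside 13.1% of all genes. The highest library was replicate 1 for 8 members, replicate 2 for 2 and replicate 4 for 4, beside 33.5, 17.2 and 23.9% of all genes. The lowest was replicate 1 for 9, replicate 2 for 5 and replicate 3 for 3, beside 18.1, 16.7 and 28.3%. The test admits a gene that is high in 1 library only, so these shares describe the members that passed. With edgeR's scaling factors in place of total counts the numbers were 23 and 17 of 37. The shares of all genes with those factors were not computed, so these numbers have no matching background. By total counts, without the 9 members whose exons overlap a gene on the opposite strand, they were 18 and 17 of 28.

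Each library was then set against the other 3 with edgeR's quasi-likelihood test over all genes, with Benjamini-Hochberg adjustment and a threshold of 0.05. The single library has no spread of its own in such a test and is assumed to vary like the other 3, so a call compares that library with these 3 and not a condition with another. The median log2 fold change of the members was 0.99 for replicate 3 and -0.79 for replicate 4, beside -0.10 and -0.16 for all genes tested. For replicates 1 and 2 it was -0.56 and -0.14, beside -0.10 and -0.09. No member passed in any of the 4 comparisons. The test called 0.0199, 0.0, 0.0 and 0.0464% of all genes for replicates 1 to 4, so the members' counts of 0 lie near the background. For replicate 4, 0.0398% of all genes were called higher and 0.00663% lower. At an unadjusted p under 0.05 there were 2, 0, 11 and 10 members, and 3.3, 0.517, 7.01 and 14.7% of all genes. DESeq2 called 0, 0, 1 and 4 members, and 0.148, 0.0267, 0.634 and 3.22% of all genes. With no filter on low counts, edgeR called 0, 0, 2 and 4 members, and 0.171, 0.0, 0.46 and 2.22% of all genes. The 4 comparisons share libraries, so each is given with its own values.

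**Figure D2:**
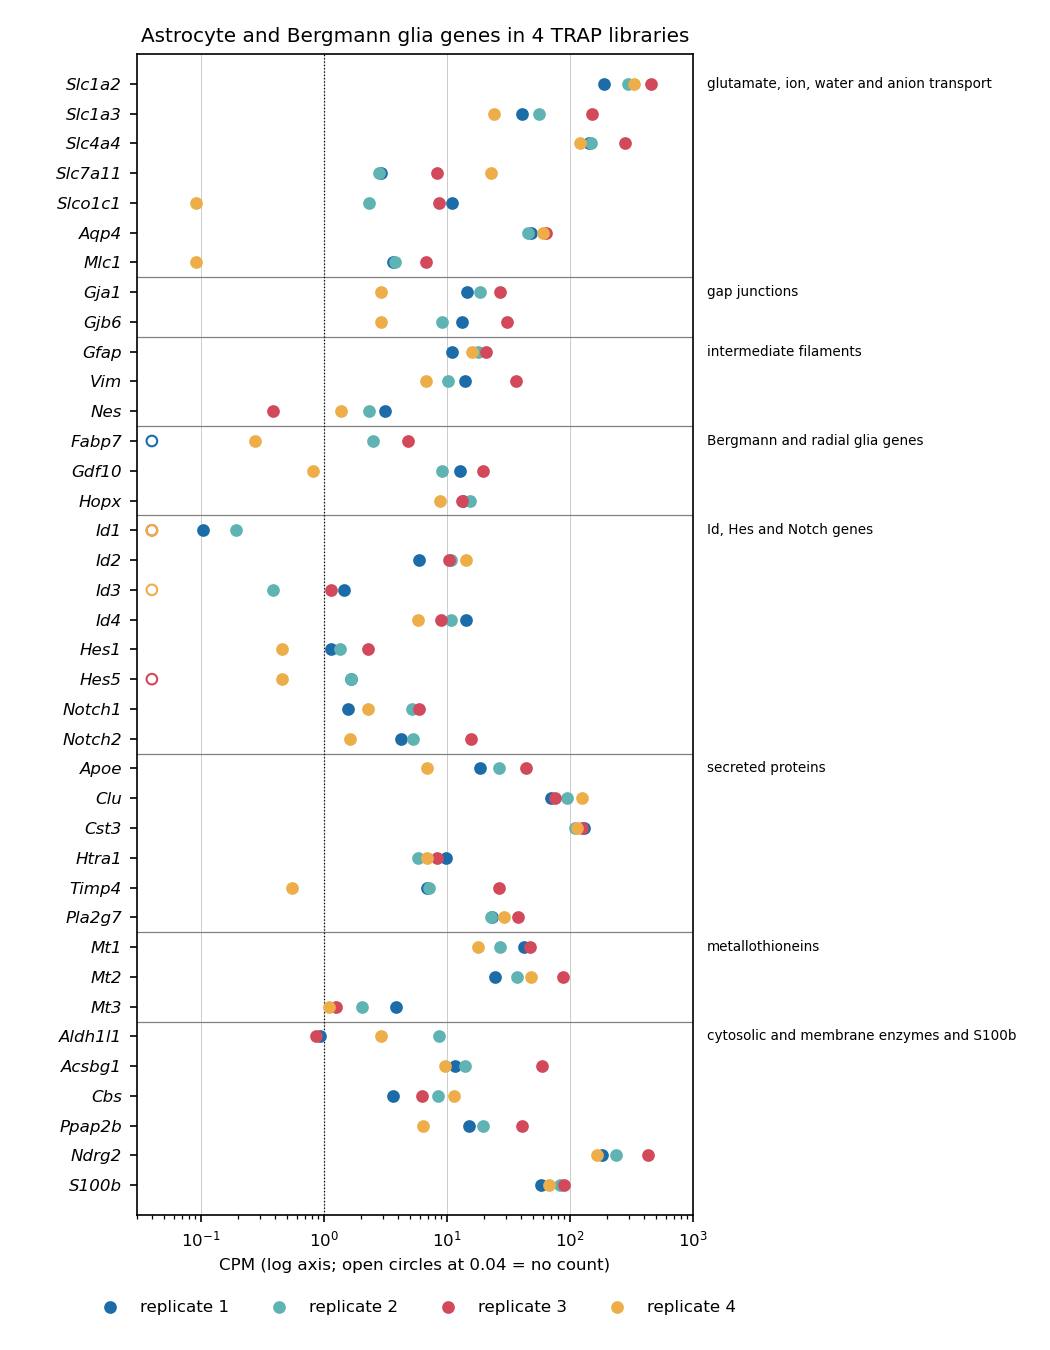
CPM (log axis) of each of the 38 members, one row per gene and one point per library, grouped by role; open circles at 0.04 stand for no count and the dotted line marks 1 CPM. Red points (replicate 3) lie farthest right in most rows, and orange points (replicate 4) lie far left for Slco1c1, Mlc1, Gdf10 and Timp4 but not for Slc1a2, Aqp4, Gfap, Clu or Cst3.

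The glutamate transporters were measured in all libraries. Slc1a2, which encodes the main astrocytic glutamate transporter and is also found in some neurons (chromosome 2, 102658659 to 102790784 on mm10), stood at 190, 298, 458 and 329 CPM in replicates 1 to 4. Slc1a3, the glutamate transporter most abundant in Bergmann glia (chromosome 15, 8634124 to 8710764), stood at 41.1, 56.3, 150.5 and 23.9 CPM. Both were highest in replicate 3, but replicate 4 was the lowest library for Slc1a3 and the second highest for Slc1a2. Within a library and per kilobase of exon, Slc1a2 exceeded Slc1a3 by a log2 ratio of 1.86 ± 0.91 (SD, n = 4), in 4 of 4 libraries. The ratio was 0.98 in replicate 3, 1.57 and 1.77 in replicates 1 and 2, and 3.13 in replicate 4, so its size differed between libraries more than its sign. An exact sign-flip test over 4 libraries, two-sided, gave p = 0.125, the smallest p that 4 libraries allow, and so cannot pass 0.05 for any pair. In replicate 3, Slc1a3 had a log2 fold change of 1.95 ± 0.46 (SE) over the other 3 libraries (edgeR, adjusted p = 0.306), and in replicate 4 of -1.66 ± 0.80 (adjusted p = 0.380). Without replicate 3 among the others, the value for replicate 4 was -0.85. With no filter on low counts Slc1a3 passed in both (edgeR, adjusted p = 0.0125 for replicate 3 and 0.0312 for replicate 4).

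Transporters and channels of bicarbonate, cystine, thyroid hormone and water differed in how far the libraries lay apart. Slc4a4, a sodium bicarbonate cotransporter, stood at 280.3 CPM in replicate 3, against 142.5, 148 and 120.9 CPM in replicates 1, 2 and 4. Aqp4, the water channel of astrocyte endfeet, varied least in this group, at 48.4, 45.5, 64.1 and 60.8 CPM in replicates 1 to 4, a highest library 1.41 times the lowest. Slc7a11, the cystine and glutamate exchanger, went against the common pattern, with 22.8 CPM in replicate 4, against 2.91, 2.81 and 8.24 CPM in replicates 1, 2 and 3. Its log2 fold change in replicate 4 was 2.42 ± 0.77 (SE), the only one above 2 in that library among the members, and it did not pass (edgeR, adjusted p = 0.219). Without replicate 3 among the others it was 3.17 and passed (adjusted p = 0.0441).

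Some members with a low level in the other libraries were nearly absent from replicate 4. Slco1c1, a thyroid hormone transporter of astrocytes and brain vessels, had 1 count in replicate 4 (0.0910 CPM, exact Poisson 95% interval 0.0023 to 0.507), against 10.9, 2.33 and 8.62 CPM in replicates 1, 2 and 3. The ratio of replicate 4 to the others pooled was 0.0126, with an exact counting interval of 3.18e-04 to 0.071. Endothelial and pericyte markers were highest in replicate 1 at a summed 124 CPM, against 20.8, 71.1 and 43.0 CPM in replicates 2 to 4, with 11 of 11 markers tested and none at 0 in every library. Their part in the level of Slco1c1 was not tested. Mlc1, a membrane protein of astrocyte endfeet, also had 1 count in replicate 4 (0.0910 CPM), against 3.64, 3.78 and 6.71 CPM in replicates 1 to 3, a ratio of 0.0192 (interval 4.83e-04 to 0.109). For both genes replicate 4 was the lowest library, as it was for 36.9% of all genes tested, and neither passed the edgeR test over all genes (adjusted p = 0.189 for Slco1c1 and 0.226 for Mlc1). The DESeq2 test called Slco1c1 (log2 fold change -6.13, adjusted p = 0.0358).

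The gap junction genes Gja1 and Gjb6 encode connexin 43 and connexin 30. Gja1 had 2.91 CPM in replicate 4, against 14.5, 18.7 and 27.0 CPM in replicates 1, 2 and 3. Gjb6 also had 2.91 CPM in replicate 4, against 13.2, 9.12 and 31.1 CPM. Both genes were lowest in replicate 4 and highest in replicate 3. The log2 fold changes of replicate 4 were -2.64 ± 0.77 for Gja1 (SE; edgeR, adjusted p = 0.194) and -2.47 ± 0.91 for Gjb6 (adjusted p = 0.260; -1.74 without replicate 3 among the others), and DESeq2 called Gja1 (-2.63, adjusted p = 0.0231). Per kilobase, Gjb6 exceeded Gja1 by a log2 ratio of 1.71 ± 0.53 (SD, n = 4), in 4 of 4 libraries, with 0.94 in replicate 2 as the smallest ratio. The mean ratio was 0.65 when the longest transcript of each gene served as its length. That change lowers every library's ratio by the same amount, more than the 0.94 of replicate 2, so 4 of 4 does not hold with that length.

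Intermediate filament genes did not share 1 pattern. Gfap, the filament of mature and reactive astrocytes, stood at 10.9, 18.1, 20.7 and 15.9 CPM in replicates 1 to 4, so replicate 4 lay within the range of the others. Vim, found in Bergmann glia and in vessel cells, stood at 36.5 CPM in replicate 3, against 14.0, 10.2 and 6.73 CPM in replicates 1, 2 and 4 (log2 fold change 1.89 ± 0.60 SE, edgeR adjusted p = 0.485). Nes, the filament of neural progenitors, was low throughout, at 3.12, 2.33, 0.383 and 1.37 CPM in replicates 1 to 4. The Gfap to Vim ratio per kilobase was 0.38 ± 0.94 on the log2 scale and above 0 in 2 of 4 libraries, so neither gene was the higher one throughout.

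The genes most often used to mark Bergmann and radial glia were detected at low to moderate levels. Gdf10, a secreted factor of the TGF-beta family that marks Bergmann glia, had 0.819 CPM in replicate 4, against 12.8, 9.12 and 19.6 CPM in replicates 1, 2 and 3. Its log2 fold change in replicate 4 was -3.91 ± 1.0 (SE), the smallest adjusted p of any member there (edgeR, adjusted p = 0.169), and DESeq2 called it (-3.92, adjusted p = 0.00568). Fabp7, a fatty acid binding protein of radial and Bergmann glia, had no count in replicate 1, 2.52 and 4.79 CPM in replicates 2 and 3, and 0.273 CPM in replicate 4. Against the level of 3 counts, Fabp7 was at least 7.99-fold lower in replicate 1 than in the other 3 libraries pooled. Hopx, a small homeodomain protein of Bergmann glia, varied little in comparison, at 13.6, 15.5, 13.2 and 8.83 CPM in replicates 1 to 4. All 3 markers were thus at their lowest or next to lowest in replicate 4, but by very different factors.

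**Figure D3:**
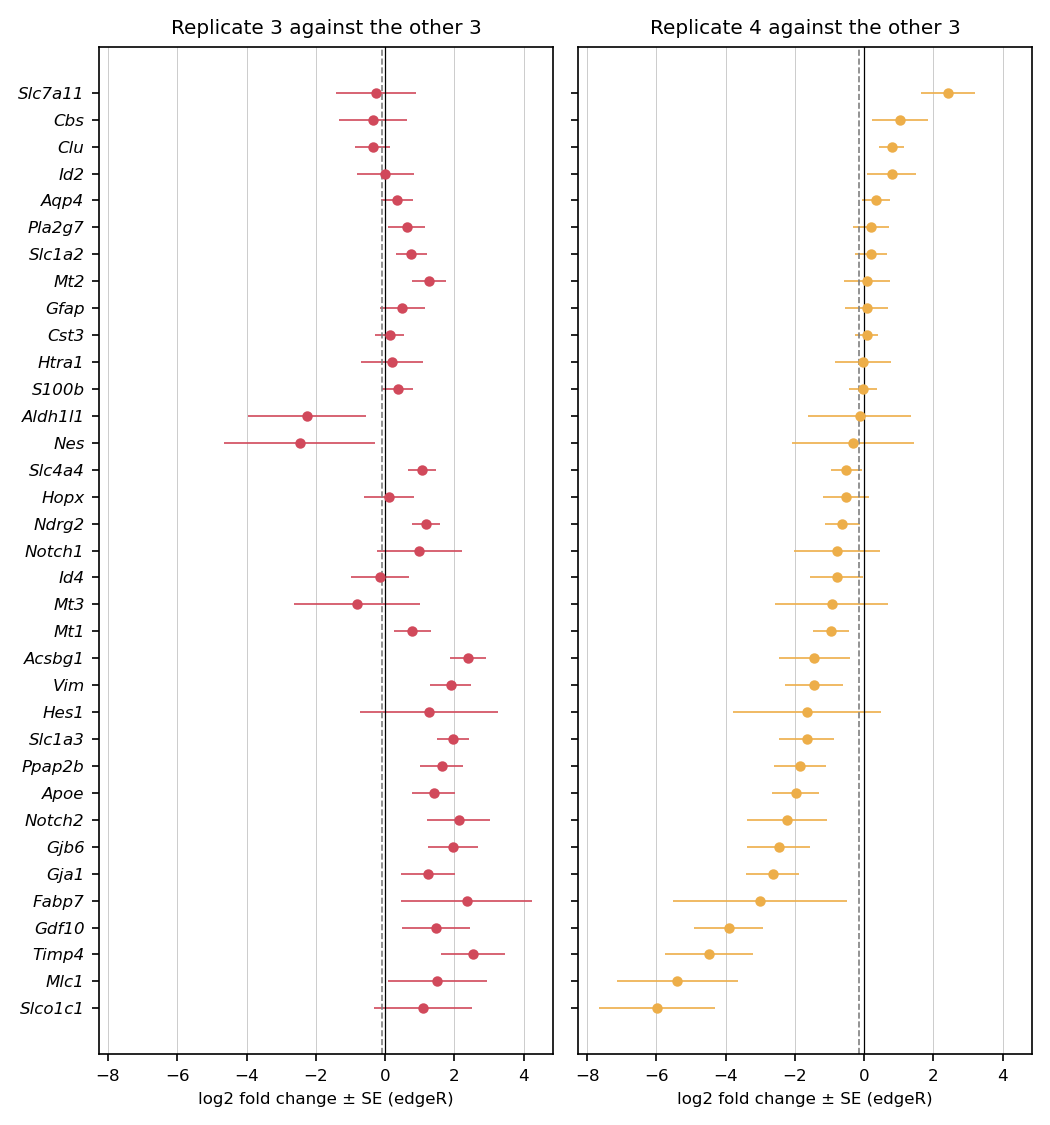
Log2 fold change with its standard error (edgeR) of replicate 3 (left) and of replicate 4 (right) against the other 3 libraries, for the 35 tested members with a count in both of these libraries, ordered by the value for replicate 4; the dashed line is the median of all genes tested. Most points lie right of the dashed line for replicate 3 and left of it for replicate 4, with Slc7a11 at 2.42 and Slco1c1 at -5.98 as the ends for replicate 4, and no member passed the adjusted threshold.

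Of the Id, Hes and Notch genes, Id2 and Id4 had the highest levels per kilobase, at 4.26 ± 1.42 and 2.59 ± 0.925 CPM per kilobase. The Id proteins pair with basic helix-loop-helix factors and keep them from binding DNA. Id2 stood at 5.92, 10.8, 10.4 and 14.4 CPM and Id4 at 14.3, 10.8, 8.91 and 5.82 CPM in replicates 1 to 4, so replicate 4 was highest for Id2 and lowest for Id4, and replicate 1 the reverse. Id3 had 1.46, 0.388, 1.15 and 0 CPM and Id1 had 0.104, 0.194, 0 and 0 CPM, which for Id1 is at most 2 counts in any library. Per kilobase, Id4 exceeded Id3 by a log2 ratio of 2.09 ± 0.57 and Id2 exceeded Id1 by 3.12 ± 0.63 (SD, n = 4), each in 4 of 4 libraries, and both sizes depend on the pseudocount. Id4 overlaps the exons of A330033J07Rik on the opposite strand, and that name stood at 1.14, 3.40, 1.25 and 1.09 CPM.

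Hes1 and Hes5, transcriptional repressors induced by Notch, were both near the limit of these libraries. Hes1 stood at 1.14, 1.36, 2.30 and 0.455 CPM in replicates 1 to 4, and Hes5 at 1.66, 1.65, 0 and 0.455 CPM. Replicate 3 thus held the most Hes1 and no Hes5 count, which against the level of 3 counts is at least 4.28-fold lower for Hes5 than in the other 3 libraries pooled. Notch1 stood at 1.56, 5.24, 5.94 and 2.28 CPM. Notch2 stood at 15.7 CPM in replicate 3, against 4.26, 5.34 and 1.64 CPM in replicates 1, 2 and 4 (log2 fold change 2.13 ± 0.91 SE, edgeR adjusted p = 0.665). The log2 ratio of Notch1 to Notch2 was -0.95 ± 0.85 (SD, n = 4). In replicate 4, Notch1 at 0.160 and Notch2 at 0.152 CPM per kilobase were nearly equal, and the ratio there, -0.02, has its sign from the pseudocount of 0.5.

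Other genes of these pathways were taken from lists. For each list, the shares of all genes at the same thresholds are those given above with the members. Of 31 Notch pathway genes tested, edgeR called 0 in each of the 4 comparisons, with 2, 0, 1 and 6 at an unadjusted p under 0.05 for replicates 1 to 4, and DESeq2 called 0, 0, 0 and 1. That 1 gene was Jag2, a Notch ligand, at 0.910 CPM in replicate 4, against 7.28, 11.6 and 10.3 CPM in replicates 1, 2 and 3. The highest per kilobase were Dner, a transmembrane protein of Purkinje cells known in mice to act on Bergmann glia, at 53.0 ± 15.3 CPM per kilobase, and Dlk1, a Notch-like transmembrane protein, at 48.7 ± 30.8. Of 21 BMP pathway genes tested, edgeR called 0 in each comparison, with 1, 0, 1 and 6 at an unadjusted p under 0.05, and DESeq2 called 1, the receptor gene Bmpr2, in replicate 4. Bmpr2 stood at 1271 CPM in replicate 4, against 581, 456 and 359 CPM in replicates 1, 2 and 3, and with 37.1 ± 23.0 CPM per kilobase was the highest of that list, followed by Smad9, a signal transducer of these receptors, at 12 ± 1.87.

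Genes of secreted proteins included the most stable member. Cst3, which encodes the cysteine protease inhibitor cystatin C, stood at 130.3, 109.3, 125.3 and 114.3 CPM in replicates 1 to 4, a highest library 1.19 times the lowest. Clu, an extracellular chaperone made by astrocytes and by some neurons, stood at 125.8 CPM in replicate 4, against 69.7, 95.5 and 75.0 CPM in replicates 1, 2 and 3 (log2 fold change 0.80 ± 0.36 SE, edgeR adjusted p = 0.332). Apoe, the main lipid carrier of the brain and mostly astrocytic, was lowest where Clu was highest, with 6.92 CPM in replicate 4, against 18.7, 26.5 and 44.0 CPM (-1.97 ± 0.68, adjusted p = 0.242). Apoe lay below Clu per kilobase in 4 of 4 libraries, but the log2 ratio of Apoe to Clu was -0.08 in replicate 3 and -3.40 in replicate 4, and its mean, -1.45 ± 1.40 (SD, n = 4), was -0.80 without replicate 4. Pla2g7, a secreted phospholipase, stood between 22.8 and 38 CPM, and Htra1, a serine protease, between 5.82 and 9.77 CPM.

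Timp4, an inhibitor of matrix metalloproteases, had among the widest spreads, with 0.546 CPM in replicate 4, against 6.86, 7.18 and 26.7 CPM in replicates 1, 2 and 3. Its log2 fold change was -4.49 ± 1.27 (SE) in replicate 4 (edgeR, adjusted p = 0.191), or -3.48 without replicate 3 among the others, and 2.54 ± 0.93 in replicate 3 (adjusted p = 0.574), and DESeq2 called it in replicate 4 (adjusted p = 0.00894). Timp4 overlaps exons of Syn2, a neuronal synapsin gene on the opposite strand, and the strand setting of the counting was not given. Syn2 stood at 266 CPM in replicate 4, against 293, 283 and 203 CPM in replicates 1, 2 and 3, and the part of Syn2 reads in the counts of Timp4 was not tested.

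Of 13 genes of apolipoprotein receptors and lipid export tested, edgeR called 0 in each comparison, with 1, 0, 3 and 0 at an unadjusted p under 0.05 for replicates 1 to 4, and DESeq2 called 0 in each. Per kilobase the highest were Apod, a lipocalin of glia and vessel cells, at 40.6 ± 22.0, and Sorl1, a sorting receptor that binds Apoe, at 10.3 ± 5.05 CPM per kilobase.

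The metallothioneins, small cysteine-rich proteins that bind zinc and copper, lie side by side on chromosome 8. Mt1 (94179082 to 94180327) stood at 42.2, 26.9, 47.7 and 18.0 CPM, and Mt2 (94172664 to 94173568) at 24.7, 36.9, 87.5 and 48.4 CPM in replicates 1 to 4. Mt3 (94152607 to 94154146), a metallothionein known mainly from brain, stood at 3.85, 2.04, 1.25 and 1.09 CPM. Replicate 3 was highest for Mt1 and Mt2, whereas replicate 1 was highest for Mt3. Per kilobase, Mt2 exceeded Mt1 by a log2 ratio of 1.57 ± 0.92 (SD, n = 4) in 4 of 4 libraries, with 0.32 in replicate 1 as the smallest ratio and 2.48 in replicate 4 as the largest. The exon length used for Mt1, 1246 bases, covers the gene from start to end, against 588 bases for Mt2. Levels and ratios of Mt1 per kilobase depend on that length. By CPM alone, Mt1 was above Mt2 in replicate 1, at 42.2 against 24.7 CPM. Mt3 lay below Mt1 by -3.54 ± 0.69 in 4 of 4 libraries, or -2.75 with the longest transcript as length. Mt1 and Mt2 have similar sequences and Mt2 also overlaps an antisense gene, so how the counting split or dropped their reads is uncertain.

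Mt1 and Mt2 are known to be induced by metals through the factor Mtf1, which binds metal response elements, whereas Mt3 is known for little response to metals. The promoter windows of the 3 genes are shown because these neighbouring genes differed in level and are known to differ in their response to metals. They come from RefSeq on GRCm38.p6, plus strand, from 250 bases before to 50 bases after the RefSeq start. Capitals mark matches of the core of the metal response element, TGCACNC or TGCGCNC, on either strand.
Mt1 (chr8:94178839-94179138): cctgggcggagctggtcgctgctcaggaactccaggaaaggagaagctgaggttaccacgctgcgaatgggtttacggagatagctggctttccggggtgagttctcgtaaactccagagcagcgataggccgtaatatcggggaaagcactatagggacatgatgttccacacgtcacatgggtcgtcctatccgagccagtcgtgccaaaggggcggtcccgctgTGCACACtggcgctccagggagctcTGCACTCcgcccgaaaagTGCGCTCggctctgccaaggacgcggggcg
Mt2 (chr8:94172368-94172667): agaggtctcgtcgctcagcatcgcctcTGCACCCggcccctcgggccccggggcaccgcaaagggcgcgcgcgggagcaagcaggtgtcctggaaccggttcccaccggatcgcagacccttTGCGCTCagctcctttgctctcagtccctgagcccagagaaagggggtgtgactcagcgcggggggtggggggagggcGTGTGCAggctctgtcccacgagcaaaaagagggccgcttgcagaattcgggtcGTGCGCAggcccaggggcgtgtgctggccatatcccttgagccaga
Mt3 (chr8:94152357-94152656): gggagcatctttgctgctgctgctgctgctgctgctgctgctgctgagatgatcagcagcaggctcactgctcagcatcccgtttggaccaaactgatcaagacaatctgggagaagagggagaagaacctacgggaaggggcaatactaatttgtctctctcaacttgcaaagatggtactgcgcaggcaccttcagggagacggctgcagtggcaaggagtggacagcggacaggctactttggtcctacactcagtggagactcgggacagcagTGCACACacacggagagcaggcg
The Mt1 window held 3 matches, the Mt2 window 4 and the Mt3 window 1. Of 32851 windows of the same length, 25.7% held at least 1 match, 1.97% at least 3 and 0.517% at least 4. A match is a description of these letters and not a bound site. Mtf1 itself stood at 77.0, 67.4, 28.8 and 69.4 CPM in replicates 1 to 4. It was lowest in replicate 3 (log2 fold change -1.27, edgeR), as were 28.3% of all genes tested, and Mt1 and Mt2 were highest there. A link between these levels was not tested. Of 16 genes of zinc transport and Mtf1 tested, edgeR called 0 in each comparison, with 0, 0, 1 and 1 at an unadjusted p under 0.05, and DESeq2 called 0 in each. The zinc importer gene Slc39a10, at 34.5 ± 12.3, and the zinc transporter gene Slc30a9, at 17.0 ± 4.52, were highest per kilobase.

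**Figure D4:**
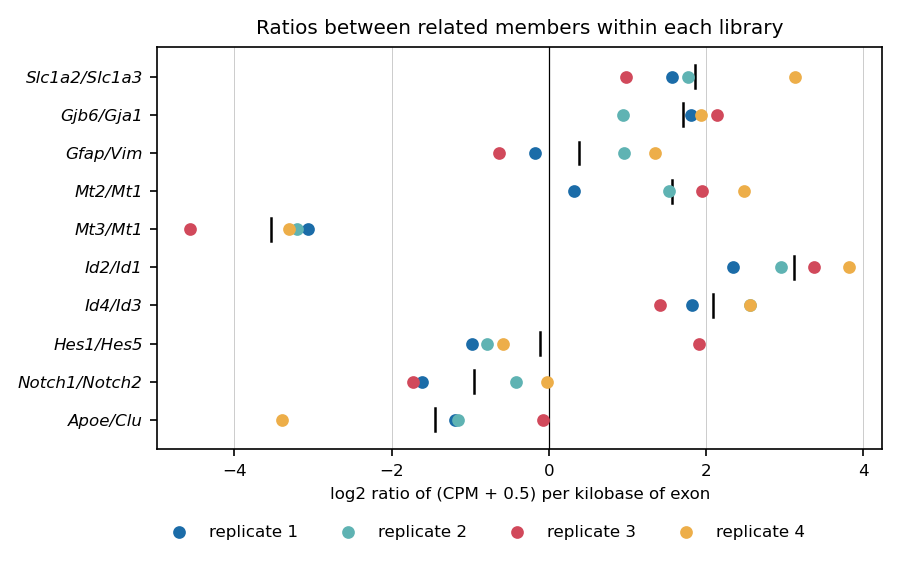
Log2 ratio of (CPM + 0.5) per kilobase of exon between related members within each library; points are the 4 libraries and black bars their means. All 4 points lie on 1 side of 0 for every pair except Gfap/Vim and Hes1/Hes5, and the Slc1a2/Slc1a3 and Apoe/Clu points are spread from 0.98 to 3.13 and from -3.40 to -0.08.

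Among the remaining enzymes and cytosolic proteins, Acsbg1, an acyl-CoA synthetase, stood at 59.8 CPM in replicate 3, against 11.5, 14.1 and 9.65 CPM in replicates 1, 2 and 4. Its log2 fold change in replicate 3 was 2.39 ± 0.52 (SE), with the smallest adjusted p of any member there (edgeR, adjusted p = 0.281), and DESeq2 called it (adjusted p = 0.0281). Ndrg2, an abundant astrocyte protein that some neurons also hold, stood at 430 CPM in replicate 3, against 180.5, 235 and 167 CPM in replicates 1, 2 and 4 (1.18 ± 0.41, edgeR adjusted p = 0.523). Ppap2b, a lipid phosphate phosphatase now named Plpp3, stood at 40.6 CPM in replicate 3 and 6.37 CPM in replicate 4, with 15.1 and 19.6 CPM in replicates 1 and 2.

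S100b, a calcium-binding protein of astrocytes and of some other cells, varied less, at 58.4, 83.7, 89.1 and 68.1 CPM in replicates 1 to 4. Cbs, an enzyme of cysteine synthesis known in Bergmann glia, was highest in replicate 4 at 11.5 CPM, against 3.64, 8.54 and 6.23 CPM in replicates 1, 2 and 3. Aldh1l1, a folate enzyme widely used as an astrocyte marker, stood at 0.935, 8.64, 0.862 and 2.91 CPM, so it was highest in replicate 2 and did not follow Slc1a3. Slc7a11 and Cbs were the 2 members with the largest positive log2 fold changes in replicate 4 (1.03 ± 0.80 for Cbs, edgeR adjusted p = 0.560).

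The spread between libraries separated the members. Of the 37 tested, 8 had a highest library less than 2 times the lowest (21.6%, beside 32.9% of all genes), and 19 had one more than 5 times the lowest (51.4%, beside 31.1%). The stable ones were Aqp4, Gfap, Hopx, Clu, Cst3, Htra1, Pla2g7 and S100b, a grouping made after their values were seen. The median SD of log2(CPM + 0.5) was 0.80 over the members tested, beside 0.61 over all genes tested, at median levels of 12.8 and 15.4 CPM.

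Markers of other cell types moved between the libraries as well. Of all genes tested, 25.4% were highest in replicate 3. Summed Purkinje cell markers stood at 3359 CPM in replicate 3 and 1208 CPM in replicate 4, with 1394 and 1690 CPM in replicates 1 and 2, and 7 of 8 were highest in replicate 3. Granule cell markers summed to 1568 CPM in replicate 3 and to 676.5 to 850.0 CPM in the other 3 libraries. Of these, 7 of 7 were highest in replicate 3 and 2 of 7 lowest in replicate 4. Inhibitory nuclear neuron markers summed to 372 CPM in replicate 3 and 73.8 CPM in replicate 4, with 115.9 and 181 CPM in replicates 1 and 2. Of these, 4 of 6 were highest in replicate 3, and Gad2 made up 239 CPM of the sum there. In replicate 4, 5 of 6 were lowest, beside 36.9% of all genes tested. Their median log2 fold change in replicate 4 was -2.76 (edgeR), beside -0.16 for all genes. Slc32a1 stood at 1.18 CPM in replicate 4, against 5.51, 13.8 and 29.3 CPM in replicates 1, 2 and 3. Slc6a5 and Pax2 had 0 CPM in replicate 4, against 1.77, 1.84 and 9.87 CPM and 1.98, 8.15 and 2.78 CPM. Replicate 3 thus held the highest sums of these cortical and inhibitory markers and the highest levels of most members. The part of those markers in the members' levels was not tested.

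Other glial and vessel markers did not all follow. Oligodendrocyte markers summed to 579, 828, 1347 and 1210 CPM in replicates 1 to 4, and 0 of 12 were lowest in replicate 4, beside 36.9% of all genes tested. Oligodendrocyte precursor markers summed to 79.1, 88.2, 111.9 and 152.6 CPM, of which C1ql1 made up 42.8, 43.1, 22.2 and 86.8 CPM. Of these markers, 3 of 8 were highest in replicate 3 and 1 was lowest in replicate 4. Microglia markers, of which C1qa had no count in any library, summed to 53.4 CPM in replicate 3 and to 20.8 to 25.5 CPM in the others. Choroid plexus and ependyma markers summed to 57.1, 215.5, 14.7 and 10.3 CPM, of which Ttr made up 44.9, 190, 4.50 and 0 CPM. The glutamatergic neuron markers, dominated by Snap25, summed to 24350, 21760, 21460 and 30260 CPM and were highest in replicate 4. Among them, Nefm stood at 2502 CPM in replicate 4, against 1065, 939 and 897 CPM in replicates 1, 2 and 3.

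**Figure D5:**
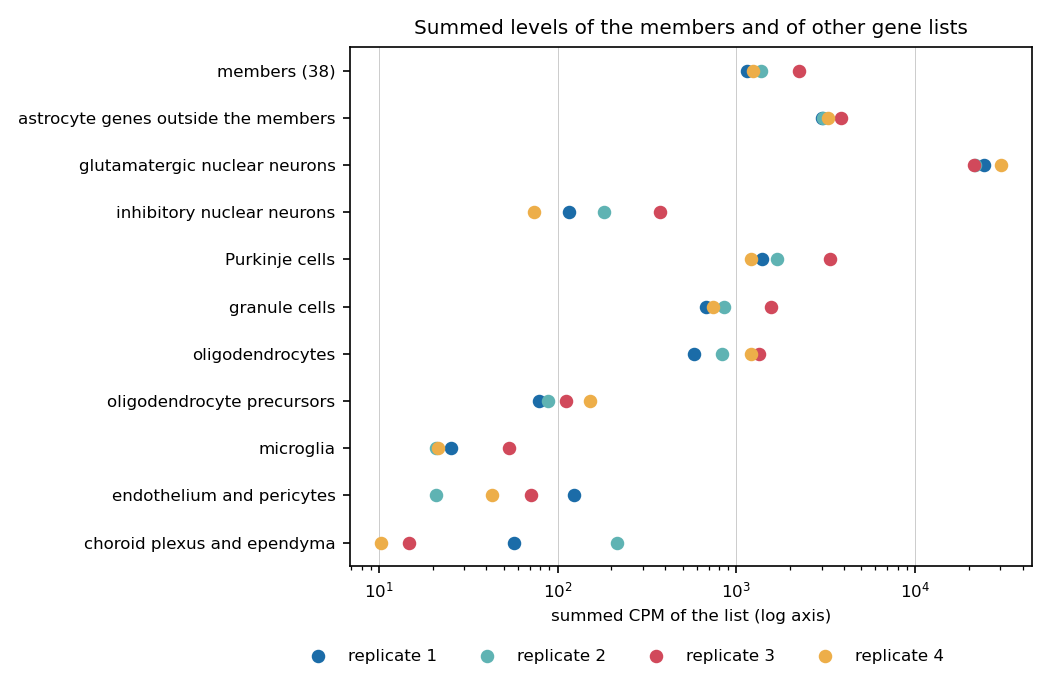
Summed CPM (log axis) of the 38 members, of 40 other astrocyte genes and of marker lists of 9 other cell types, one point per library. Replicate 3 is farthest right for the members and for Purkinje, granule, inhibitory neuron, oligodendrocyte and microglia markers, while replicate 4 is farthest right for glutamatergic neuron and oligodendrocyte precursor markers. C1ql1 made up 86.8 CPM of the oligodendrocyte precursor sum in replicate 4.

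Astrocyte genes outside the members gave a further set of values. Of 40 tested, 19 were highest in replicate 3 and 21 lowest in replicate 4, beside 25.4 and 36.9% of all genes tested. Their median log2 fold changes were 0.59 in replicate 3 and -0.70 in replicate 4, beside -0.10 and -0.16 for all genes. For the tests, the shares of all genes are those given above with the members. The edgeR test called 0 of the 40 in each comparison, with 2, 0, 6 and 6 at an unadjusted p under 0.05, and DESeq2 called 0, 0, 0 and 2. Those 2 moved in opposite directions in replicate 4. Gpr37l1, a receptor of astrocytes and Bergmann glia, stood at 3.55 CPM in replicate 4, against 15.8, 19.9 and 22.4 CPM in replicates 1, 2 and 3. Atp1b2, a sodium pump subunit also made by neurons, stood at 933 CPM, against 513, 522 and 448.5 CPM. The highest of the list per kilobase were Sparcl1, a secreted glycoprotein, at 250 ± 45.5 and Atp1b2 at 148 ± 54.3 CPM per kilobase. Glul, the glutamine synthetase of astrocytes, stood at 594 CPM in replicate 3, against 191, 348 and 300.3 CPM in replicates 1, 2 and 4.

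Only replicate 4 carries a library number outside 1300 to 1302, so what replicate 4 shows and what that number may stand for cannot be told apart.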

How the data were processed

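The deposited files hold whole-number counts per gene name for each of 4 libraries. Per the submitters' processing notes, STAR 2.0.0e, HTSeq and the build mm10 were used, while annotation and strand setting were not stated there. Summary rows of the counting program (no feature 14.1 to 21.1%, not unique 14.2 to 20.6%, ambiguous 2.04 to 2.94% of reads) stayed out of totals. No pair of libraries agreed within sampling noise.

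From the deposited counts, CPM was computed over all gene names, and CPM per kilobase with union exon lengths of GENCODE release 21, which gave a length to 73.4% of names and to 97.2% of genes that had 10 counts or more in each library. Ratios are log2 of (CPM + 0.5) per kilobase. Each library was tested against the other 3 with edgeR 4.0.16 (R 4.3.3; filterByExpr, TMM, robust quasi-likelihood, Benjamini-Hochberg over 15083 genes, 2 residual degrees of freedom), after a test on simulated data. On the simulated data, edgeR recovered 65.5 to 74.5% of 200 genes changed 8-fold in 1 library, so a gene that differs can fail to pass. It also called 4, 10, 7 and 17 unchanged genes for replicates 1 to 4, so a gene that passes can be a false call. The changed genes were drawn from those with higher counts, so the recovery does not cover members with few counts. Alternatives were DESeq2 1.42.0 with its Wald test, its size factors in edgeR, no filter, counts without Rn45s, other lengths, pseudocounts and thresholds, and leaving out each library.

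The members and lists were chosen with earlier results of these data known. Values in every library were due for called members, members of the 10 pairs, the 5 highest and 5 lowest per kilobase and those with 1 library far from the rest, and, of other lists, for called genes and the 2 highest per kilobase. Other genes were named after their values were seen.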

Additional observations from a re-analysis of the deposited data

Results flagged for a closer look

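A value was picked out where 1 library lay far from the other 3, its gap to the nearest, as a share of the whole range, being above Dixon's 95% critical value. Chance picks out about 1 in 20 groups of normally spread values. Here 11.6% of all genes tested met the criterion, and 2 of the 37 members tested did (5.41%). The members were Slc4a4, with 280.3 CPM in replicate 3, and Acsbg1, with 59.79 CPM in replicate 3. Among the 10 ratios, Mt3 to Mt1 was -4.56 on the log2 scale in replicate 3, and Hes1 to Hes5 was 1.91 in replicate 3, where Hes5 had no count. Among the lists, the summed BMP pathway genes reached 1903 CPM in replicate 4, of which Bmpr2 made up 1271 CPM. The summed microglia markers reached 53.37 CPM in replicate 3.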

How the results depend on the processing

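No paired analysis was possible because the libraries form 1 group. The count of members called stayed at 0 for replicates 1 and 2 under each alternative. For replicate 3, DESeq2 called 1 member (Acsbg1) and edgeR with no filter called 2 (Acsbg1, Slc1a3). For replicate 4 each called 4, namely Gdf10, Slco1c1 and Timp4 with both, Gja1 with DESeq2 and Slc1a3 with no filter, and leaving out 1 library gave 0 to 1. Over all genes, DESeq2 called 25, 5, 91 and 427 for replicates 1 to 4, beside 3, 0, 0 and 7 in edgeR. With no filter the counts were 32, 86 and 416 for replicates 1, 3 and 4. Leaving out 1 library gave 7 to 31 for replicate 1, 0 to 2 for replicate 2, 1 to 33 for replicate 3 and 74 to 125 for replicate 4. The cause was not tested. A threshold of 10 CPM left 12 members in place of 27. The log2 ratio was 0.65 for Gjb6 to Gja1 and was -2.75 for Mt3 to Mt1 with the longest transcript as length. With pseudocounts of 0.1 and 2, Id2 to Id1 was 4.93 and 1.46 and Id4 to Id3 was 3.0 and 1.0. Hes1 to Hes5, at -0.11, changed sign to 0.37 with a pseudocount of 0.1 and to 0.26 with the longest transcript, and ranged from -0.78 to 0.18 when 1 library was left out (0.05, 0.12 and 0.18 without replicates 4, 2 and 1). The scalings and the removal of overlapped members, for the counts highest in replicate 3 and lowest in replicate 4, were chosen after seeing the data. Of the members, 11 had under 1 CPM in at least 1 library, where a few counts set the value.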
